A study of Mus musculus with 4 samples.

Results

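The genes of the Mediator complex were examined in late two-cell mouse embryos cultured with or without the MYC inhibitor 10074-G5, a small molecule that hinders the pairing of MYC with its partner MAX. The members were every listed gene whose symbol consists of Med and a number, with Med12l and Med13l, and the genes Cdk8, Cdk19 and Ccnc, which gave 33 of the 24411 genes listed in each library. All embryos were of the ICR strain, were produced by in vitro fertilization and were grown in KSOM medium until 36 h post-insemination (hpi). The DMSO group received only the solvent and the MYC-inhibited group received 6 µM 10074-G5, starting at 3 hpi by the sample labels and at 6 hpi by the description of the whole series. RNA-seq was performed on 2 libraries per group, each made from a pool of 10 embryos.

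Mediator is the large complex that joins transcription factors bound at enhancers to RNA polymerase II at the promoter. Its head and middle modules contact the polymerase, the tail module receives most of the transcription factors, and Med14 runs through the complex as its scaffold. The kinase module binds the core reversibly and consists of a cyclin-dependent kinase (Cdk8 or its paralog Cdk19), cyclin C (Ccnc), Med12 or Med12l, and Med13 or Med13l. In the two-cell mouse embryo this machinery serves zygotic genome activation, the start of transcription from the embryo's own genome. The members were divided into 11 head genes (Med6, Med8, Med11, Med17, Med18, Med20, Med22, Med27, Med28, Med29 and Med30), 9 middle genes (Med1, Med4, Med7, Med9, Med10, Med19, Med21, Med26 and Med31), the scaffold gene Med14, 5 tail genes (Med15, Med16, Med23, Med24 and Med25) and the 7 kinase genes. The first 4 sets form the core of 26 genes. The placing of Med27 to Med30 in the head follows older schemes of the complex, and Med26 joins the core reversibly.

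The libraries held between 18206584 and 20718690 expected counts. DMSO replicate 1 stood apart from the rest in log2 CPM, the counts of a gene scaled to the TMM-adjusted total of its library. Its Pearson correlations across genes with the other libraries were 0.825 to 0.887, and those libraries correlated among themselves at 0.912 to 0.931. Between the 2 DMSO libraries 43.4% of the 13549 genes tested differed by more than 2-fold, against 21.9% between the 2 MYC-inhibited libraries. Of the 33 Mediator genes, 5 differed by more than 2-fold between the DMSO libraries and 3 between the MYC-inhibited libraries. DMSO replicate 1 was also lowest for a list of 10 oocyte transcripts (median log2 CPM, each gene centred on its mean over the libraries, of -1.18, against 0.10 in DMSO replicate 2 and 0.50 and 0.47 in the MYC-inhibited libraries) and had a low median for a list of 10 two-cell stage transcripts (-0.99, against 0.24, 0.36 and 0.47). It was the lowest library for 9 of the 10 oocyte transcripts, Zp3 being the exception, and for 6 of the 10 two-cell transcripts (the Zscan4 and Tcstv genes and Zfp352), while it was the highest for the other 4 (Dppa2, Dppa4, Pramel6 and Pramel7). The part of these shifts in the results was not tested, and the signs, the medians and the counts at an unadjusted p are therefore also given without that library. Of 10 cumulus cell markers, 5 to 6 were listed at 0 counts in a library, with Ptx3, Amh, Foxl2 and Inhba at 0 in all 4. The summed FPKM (fragments per kilobase of transcript, scaled to the library) of these markers were 8.30 to 14.9 in the libraries other than DMSO replicate 1, where they were 22.7. Amhr2 was the largest part of each sum, with 21.5 and 8.57 in the DMSO group and 5.57 and 4.45 in the MYC-inhibited group. Tnfaip6 had another order, with 0 and 3.95 against 3.38 and 1.45. Of 10 sperm markers, 4 to 7 were at 0, with Prm1, Tnp2, Smcp and Gapdhs at 0 in all 4 libraries. The summed FPKM of the sperm markers were 51.9 and 39.7 in the DMSO group and 37.7 and 48.0 in the MYC-inhibited group. Ldhc was the largest part, with 40.5 and 29.4 against 19.3 and 31.2. CPM and FPKM are relative to the other transcripts of a library, so a lower level of a transcript and a higher amount of the others cannot be told apart. In pools of whole embryos neither can fewer cells and less RNA per cell. The FPKM of all genes summed to 826890 and 746692 with DMSO and 721872 and 742905 with the inhibitor, so summed FPKM do not share an equal total. The labels do not say whether the pools came from separate fertilizations, and the p-values measure the spread between these libraries.

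Sequence just upstream of the start was taken from RefSeq (mouse build GRCm38.p6) for the genes on which the account below turns, with exons of any gene left out. Capitals mark matches, on either strand, to the E-box CACGTG, to which MYC and MAX can bind, to CCGGAA, a motif of ETS factors, or to the CCAAT box, which reads ATTGG on the opposite strand. The first 2 stretches show E-boxes upstream of a head gene and of a kinase gene, and the other 3 are shown because these genes had small p-values. Med20 and Med12l also had an unadjusted p under 0.05 by edgeR, but no stretch was obtained for them. Each is written 5′ to 3′ on the strand of its gene.
Med17, chr9:15279932-15280031, minus strand: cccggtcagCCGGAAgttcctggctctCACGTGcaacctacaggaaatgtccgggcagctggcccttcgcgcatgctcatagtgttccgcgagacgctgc
Cdk8, chr5:146231000-146231051, plus strand: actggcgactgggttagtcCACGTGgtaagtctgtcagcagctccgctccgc
Med6, chr12:81595009-81595108, minus strand: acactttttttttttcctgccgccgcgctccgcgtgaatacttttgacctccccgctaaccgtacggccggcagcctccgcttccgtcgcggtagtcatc
Med29, chr7:28392709-28392808, minus strand: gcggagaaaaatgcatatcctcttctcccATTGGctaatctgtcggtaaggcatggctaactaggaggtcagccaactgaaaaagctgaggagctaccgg
Med15, chr16:17722948-17723047, minus strand: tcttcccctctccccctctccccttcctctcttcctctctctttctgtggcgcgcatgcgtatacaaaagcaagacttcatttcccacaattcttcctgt
The Med17 stretch holds an E-box and a CCGGAA match close to each other, and the Cdk8 stretch holds an E-box. The Med6 and Med15 stretches hold none of the motifs searched.

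A RefSeq window from 250 bases before to 50 bases after the start was found for 28 of the 33 members. CACGTG was present in 4 of these windows (Med17, Med31, Med28 and Cdk8), or 14.3%, against 11.5% of the 10307 tested genes with a window and 8.09% of all 27025 windows. The fold changes of these 4 genes lay on both sides of 0, and their median log2 fold change (log2FC, MYC-inhibited against DMSO) was -0.51, against -0.39 for the members without the motif. The motif CCGGAA was in 14 of the 28 windows (50% against 29.2% of tested genes). Among the members with a window it was in 13 of the 20 with a log2FC below 0 and in 1 of the 8 above, against 34.8% of the tested genes below 0 and 23.9% of those above. The GC-box letters GGGCGG were in 19 windows (67.9% against 64.4%), CCAAT was in 11 (39.3% against 44.1%) and TATAAA was in 3 (10.7% against 9.82%). All motifs were searched on both strands, the motifs other than CACGTG were chosen after the values had been seen, and no motif count was tested.

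Every Mediator gene was detected in all 4 libraries, at levels that differed by up to 3615-fold between genes in mean FPKM, the only scale here that allows for transcript length. Med10, a small and highly conserved middle subunit, was the most abundant, with FPKM of 2866 and 2107 in the DMSO libraries and 1399 and 1617 in the MYC-inhibited libraries. Med27 of the head (mean FPKM 636) and Med31 of the middle module (484) came next over the 4 libraries. With DMSO alone the order after Med10 was Med31 (604), Med6 (489) and Med27 (466.5). The lowest core genes were Med16 (0.927) and Med24 (3.63) of the tail and Med18 (2.48) of the head. Within the kinase module, Ccnc (105) and Cdk8 (100) were the highest and were not separated beyond their spread over libraries, followed by Med13 (30.99), Med13l (4.005), Med12l (1.11), Cdk19 (0.772) and Med12 (0.552). Med12, the subunit that activates the kinase, was thus lowest over the 4 libraries, but with DMSO its mean FPKM (0.71 ± 0.509, n = 2) was above that of Med12l (0.56 ± 0.0707), and with the inhibitor below it (0.395 ± 0.0495 against 1.66 ± 0.594).

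**Figure D1:**
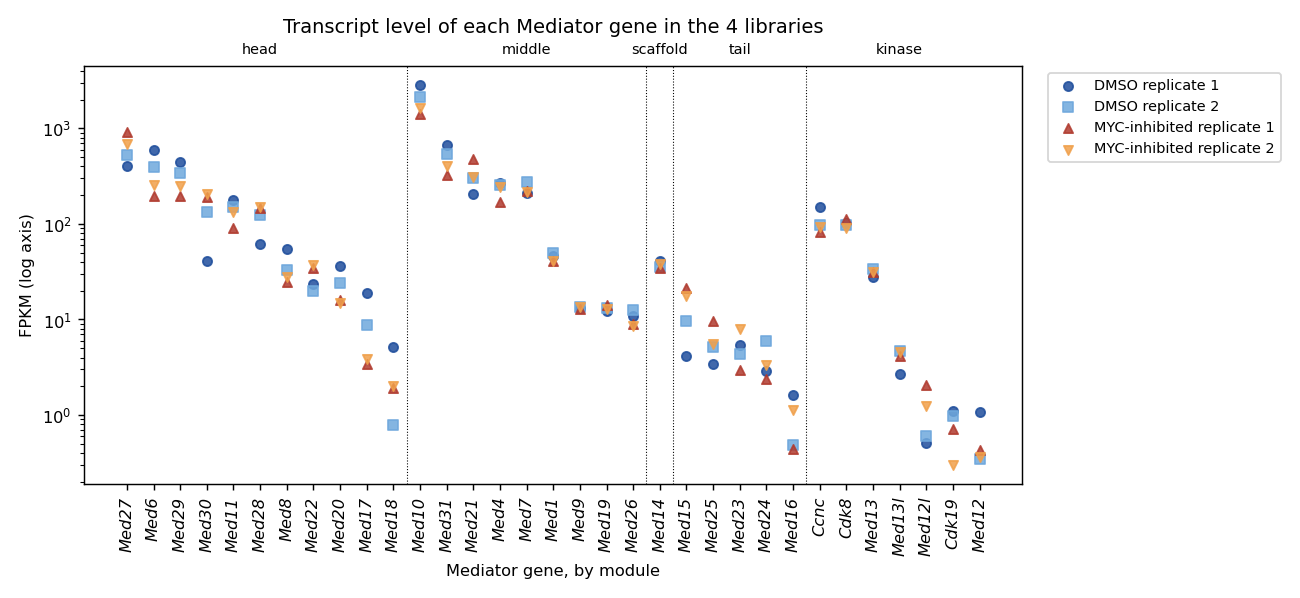
FPKM of the 33 Mediator genes (log axis) in the 2 DMSO libraries and the 2 MYC-inhibited libraries, grouped by module and ordered by mean level. Med10 lies highest (mean 1997) and Med12 lowest (mean 0.552), and tail genes all lie below a mean of 14.

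Most core genes were lower in the MYC-inhibited libraries, but the core median log2FC of -0.48 shrank to -0.18 without DMSO replicate 1. Of the 33 members, all of which passed the filter on low counts, 24 had a log2FC below 0 and 9 above 0, while 48.5% of all genes tested lay below 0 and 51.5% above. With library totals in place of TMM scaling, Med9, Med19, Med23, Med13 and Cdk8 lay just above 0, and the median log2FC of all genes was 0.17. The median log2FC was -0.46 for the members and 0.04 for all genes tested. In TMM-scaled CPM, both MYC-inhibited libraries lay below both DMSO libraries in 18 members (28.3% of all genes tested), and in 8 both lay above (28.9%). A log2FC below -1 was found in 5 members (17.8% of genes tested) and above 1 in 3 (18.1%). With edgeR's quasi-likelihood test no member and none of the 13549 genes passed both thresholds (adjusted p under 0.05 and |log2FC| above 1), and the smallest adjusted p was 0.333. At an unadjusted p under 0.05, edgeR gave 4 members lower (10.1% of genes tested) and 2 higher (4.72%). DESeq2 with transcript lengths called 1 member lower, Med17, and none higher, against 5.38% of the 7971 genes with an adjusted p lower and 1.04% higher. Limma on log2 FPKM called no gene in either direction.

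DMSO replicate 1 was then left out. In 27 of the 33 members that library was the highest or the lowest of the 4 (78.1% of all genes tested), and in 21 members DMSO replicate 2 lay between it and both MYC-inhibited libraries (47.4%). Without it, 19 members were below 0 and 14 above (47% and 53% of the 14721 genes then tested), and the median log2FC of the members was -0.09, against 0.06 for all genes. No member passed both thresholds by edgeR in that fit, in which the DMSO group is 1 library that is assumed to vary as the 2 MYC-inhibited libraries do. At an unadjusted p under 0.05, edgeR gave 6 members lower (Med6, Med17, Med29, Med10, Med31 and Med24; 7.36% of genes) and 4 higher (Med22, Med30, Med15 and Med12l; 6.44%). The sign of the log2FC stayed below 0 in 18 members (32.2% of genes tested) and above 0 in 8 (35.7%) whichever of the 4 libraries was left out. The other 7 members, Med16, Med18, Med19, Med23, Med12, Med13l and Cdk8, changed sign in at least 1 such fit.

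**Figure D2:**
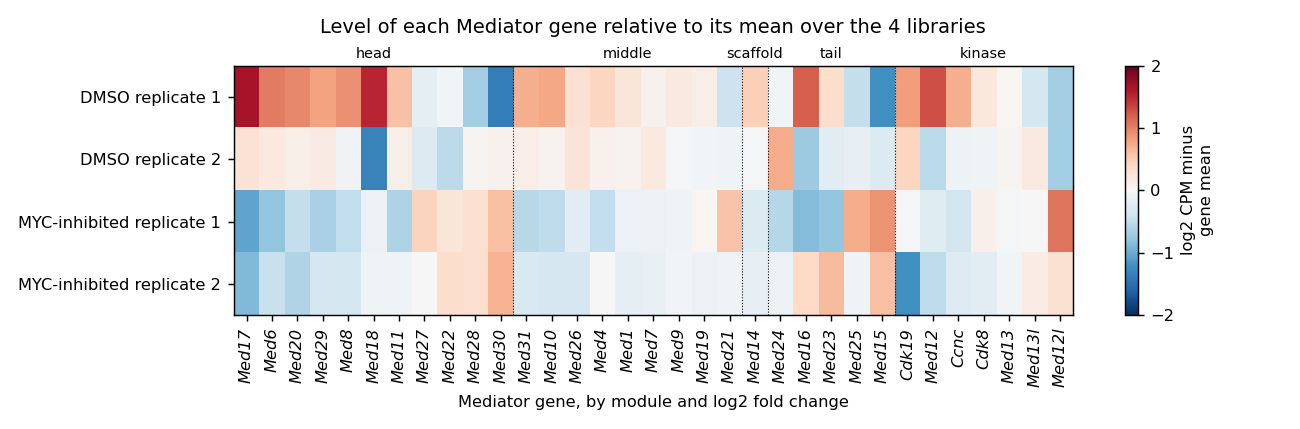
log2 CPM of each Mediator gene minus its mean over the 4 libraries, with genes in columns by module and log2FC and libraries in rows. DMSO replicate 1 is the highest or the lowest library for 27 of the 33 genes (78.1% of all genes tested). DMSO replicate 2 lies between it and both MYC-inhibited libraries for 21 (47.4%).

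The head module held both the lowest and some of the highest log2FC of the core. Med17, the subunit around which the head is built and a target of several activators, had 78.2 and 30.4 CPM in the DMSO libraries and 11.8 and 13.3 CPM in the MYC-inhibited libraries. Both MYC-inhibited values lay below both DMSO values, and the DMSO values themselves differed more than 2-fold (54.3 ± 33.8 against 12.6 ± 1.05 CPM, mean ± SD, n = 2). The log2FC of Med17 was -2.11 (SE 0.54, unadjusted p = 0.00534 and adjusted p = 0.333 by edgeR). DESeq2 with transcript lengths gave -2.13 with an adjusted p of 0.0121, the adjusted p over all alternatives ran from 0.000495 to 0.992, and the log2FC without any 1 library ran from -2.64 to -1.26, with -1.26 in the absence of DMSO replicate 1. The gene lies on chromosome 9 at positions 15260351 to 15279906.

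Med6, one of the most conserved head subunits, had 489 and 272 CPM with DMSO and 137 and 175 CPM with the inhibitor, with a log2FC of -1.29 (SE 0.42, unadjusted p = 0.0169 by edgeR). Med20, which pairs with Med18 in a movable part of the head, had 72.6 and 40.5 CPM against 26.9 and 24.7 CPM (log2FC -1.13, SE 0.44, unadjusted p = 0.0352 by edgeR). Med29, the counterpart of the fly gene intersex, had 972 and 620.04 CPM against 355 and 442 CPM (log2FC -0.998, SE 0.40, unadjusted p = 0.0392 by edgeR). In these 3 genes the groups did not overlap, DMSO replicate 1 was the highest library and the adjusted p was 0.333. Without DMSO replicate 1 their log2FC were -0.79, -0.64 and -0.62. Med18, the partner of Med20, had only 139 and 20 expected counts with DMSO and 56 in each MYC-inhibited library. Its groups overlapped, and its log2FC of -0.83 (SE 1.01) turned to 1.32 without DMSO replicate 1.

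Of the other head genes, Med8, which links Med18 and Med20 to the rest of the head, and Med11 were lower in both MYC-inhibited libraries, with log2FC of -0.93 and -0.71, or -0.35 and -0.43 without DMSO replicate 1. Med22, the partner of Med11, lay the other way at 0.57, with 29.8 and 21.5 CPM against 36.7 and 39.5 CPM. Med27, Med28 and Med30 were also higher in both MYC-inhibited libraries, with log2FC of 0.48, 0.59 and 1.11, or 0.54, 0.27 and 0.58 without DMSO replicate 1. Med27 had 427 and 399.98 CPM with DMSO and 664 and 489 CPM with the inhibitor. Med30 had 27.6 and 76.4 CPM with DMSO and 109 and 116 CPM with the inhibitor (unadjusted p = 0.0645 by edgeR), so that its groups did not overlap but the DMSO libraries differed more from each other than DMSO replicate 2 did from the MYC-inhibited libraries. Thus 6 of 11 head genes had MYC-inhibited values wholly below the DMSO values (28.3% of all genes tested) and 4 wholly above (28.9%). The log2FC was below 0 in 7 head genes (48.5% of all genes tested) with a median of -0.83. Without DMSO replicate 1 it was below 0 in 6 (47% of all genes) with a median of -0.35. The effective length that RSEM assigned to Med27 was 923 bases in DMSO replicate 1 and 748 to 784 bases in the other libraries, so its FPKM and CPM are not on the same footing across libraries.

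In the middle module 8 of 9 genes had a log2FC below 0 (48.5% of all genes tested), 7 of them without overlap between the groups (28.3%), with a median of -0.31. Without DMSO replicate 1, 7 of the 9 lay below 0 (47% of all genes) and the median was -0.30, close to that of the head. Med10 had 1913 and 1182 CPM with DMSO and 790 and 891 CPM with the inhibitor (log2FC -0.88, SE 0.41, unadjusted p = 0.0653 by edgeR). Med31, a small subunit that packs against Med7, had 680 and 454 CPM against 280 and 334 CPM (log2FC -0.88, SE 0.39, unadjusted p = 0.0534 by edgeR). Neither gene overlapped between the groups, and without DMSO replicate 1 their log2FC were -0.48 and -0.55. Because of its high level Med10 weighed most in the summed FPKM of the middle module, which were 4309 and 3563 with DMSO and 2676 and 2866 with the inhibitor, whereas the sums of the head were 1859, 1755, 1823 and 1767 in the same order.

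Med26, the docking site for elongation factors that set paused polymerase free, had similar values within each group, with 34.9 and 33.6 CPM with DMSO and 24.0 and 22.3 CPM with the inhibitor. The groups did not overlap, the libraries of each group lay close together (34.2 ± 0.868 against 23.1 ± 1.20 CPM, n = 2), and the log2FC of -0.57 (SE 0.40, unadjusted p = 0.199 by edgeR) was -0.53 without DMSO replicate 1. Med1, the main contact of nuclear receptors, had a log2FC of -0.31, and Med4, Med7 and Med9 had -0.49, -0.27 and -0.15. Med19 lay at -0.07 and overlapped between the groups. Med21, the partner of Med7 in the hinge of the middle module, was the exception, with 118 and 147 CPM against 233 and 148 CPM (log2FC 0.53). The scaffold gene Med14 had 302 and 211 CPM with DMSO and 179 and 194 CPM with the inhibitor (log2FC -0.46, SE 0.37, unadjusted p = 0.245 by edgeR), or -0.16 without DMSO replicate 1. Its groups did not overlap in CPM but did in FPKM (40.5 and 35.2 against 34.5 and 38.5), as its effective length was 6498 and 6202 bases in the DMSO libraries and 5404 and 5325 bases in the MYC-inhibited libraries. Med14 and Med27 were the only 2 members whose effective length differed by more than 1.1-fold between libraries. The groups of Med7, Med9, Med24 and Med13 also overlapped in FPKM but not in CPM, which unlike FPKM is TMM-scaled.

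The tail genes did not move together, and their median log2FC was -0.00. It was 0.57 without DMSO replicate 1 and -0.87 without MYC-inhibited replicate 2, so that its direction turned with the library left out. Med15, a tail subunit that binds activators such as the sterol-responsive factors, had 14.4 and 28.2 CPM with DMSO and 63.3 and 51.6 CPM with the inhibitor. Both MYC-inhibited libraries lay above both DMSO libraries (21.3 ± 9.71 against 57.4 ± 8.30 CPM, n = 2). The log2FC of Med15 was 1.43 (SE 0.47, unadjusted p = 0.0169 and adjusted p = 0.333 by edgeR), and leaving out 1 library gave 1.04 to 1.99. DESeq2 with transcript lengths gave 1.41 with an adjusted p of 0.0632, and the adjusted p ran from 0.00224 to 0.992 over the alternatives. Med15 lies on chromosome 16 at positions 17651208 to 17722947.

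Med25, which also binds activators, was higher in both MYC-inhibited libraries (7.90 and 9.85 against 18.6 and 10.4 CPM, log2FC 0.71). Med24 was lower in both (10.3 and 17.9 against 7.19 and 9.87 CPM, log2FC -0.72). Without DMSO replicate 1 the log2FC of Med24 was -1.05 and that of Med25 was 0.57. Med16 had 92 and 26 expected counts with DMSO and 27 and 66 with the inhibitor, so that its log2FC of -0.64 (SE 1.003) rested on few fragments, and its groups overlapped. Med23, a target of growth factor signalling, had 28.9 and 19.6 against 13.2 and 35.2 CPM, and both groups had a mean of 24.2 CPM.

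In the kinase module none of the 7 genes passed the thresholds, and Cdk8 and Med13 had log2FC close to 0. Cdk8, the kinase itself, had 268 and 218 CPM with DMSO and 248 and 197 CPM with the inhibitor (log2FC -0.13, SE 0.36, unadjusted p = 0.729 by edgeR). Med13, which ties the module to the core, had 364 and 370 CPM against 348 and 342 CPM (log2FC -0.09, SE 0.34, unadjusted p = 0.803 by edgeR). The Cdk8 groups overlapped. The Med13 groups did not overlap in CPM but lay close together, and they overlapped in FPKM (27.6 and 33.4 against 31.5 and 31.5). Ccnc had 333 CPM in DMSO replicate 1 and 187 CPM in DMSO replicate 2, against 157 and 169 CPM with the inhibitor (log2FC -0.68, unadjusted p = 0.133 by edgeR). DMSO replicate 1 stood far above the other 3 libraries for Ccnc, and the log2FC was -0.19 without it.

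Of the remaining kinase genes, Med12, Med12l and Cdk19 were sparsely read. Med12 had 168 and 52 expected counts with DMSO and 73 and 59 with the inhibitor (log2FC -1.04, SE 0.80), and 0.18 without DMSO replicate 1. Cdk19, the alternative kinase, had 115 and 98 against 80 and 33 expected counts (log2FC -1.19, SE 0.75, unadjusted p = 0.153 by edgeR), without overlap between the groups in CPM (6.89 and 5.19 against 3.71 and 1.57). Med13l had 27.5 and 40.3 against 35.6 and 39.3 CPM, with overlapping groups and a log2FC of 0.14. Med12l, the paralog of Med12, went the other way from Med12. It had 97 and 111 expected counts with DMSO and 429 and 244 with the inhibitor, or 5.81 and 5.88 CPM against 19.9 and 11.6 CPM. Both MYC-inhibited libraries were above both DMSO libraries, and the log2FC of 1.43 (SE 0.54, unadjusted p = 0.0309 and adjusted p = 0.333 by edgeR) was 1.43 also without DMSO replicate 1. The span of Med12l on chromosome 3 (59005419 to 59318446) overlaps other coding genes, and how the counting divided reads between them is not given in the sources used here. In all, 8 members overlap another coding gene (Ccnc, Cdk19, Med8, Med9, Med12l, Med19, Med20 and Med31), and their values carry the same uncertainty.

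**Figure D3:**
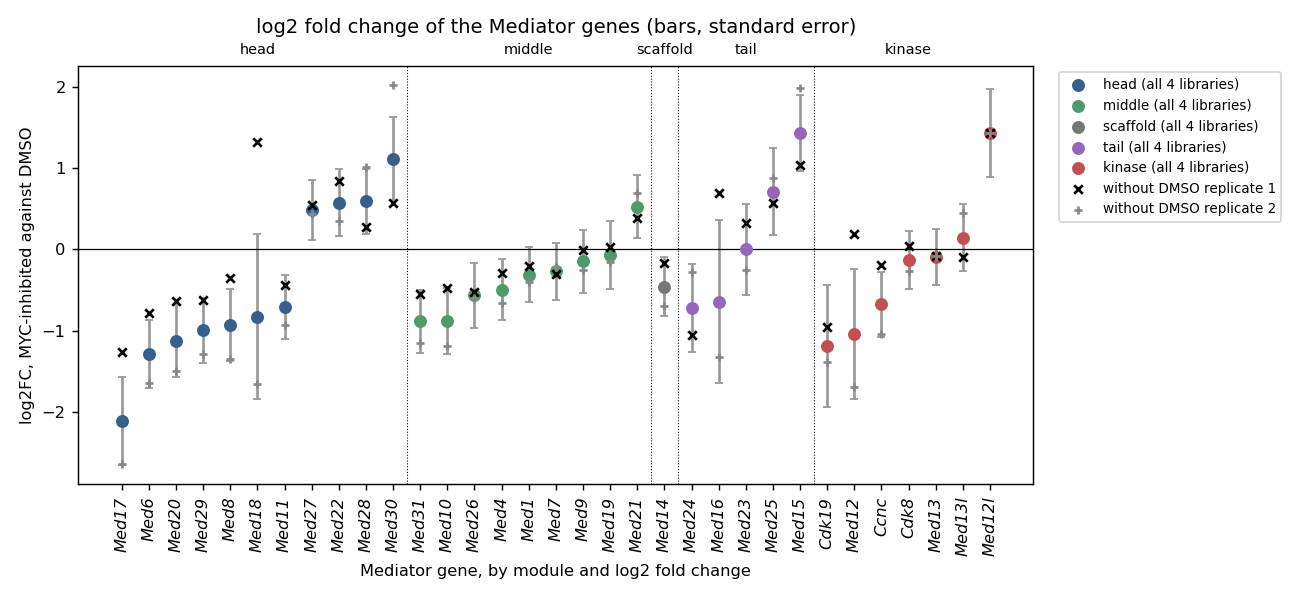
log2FC of the 33 Mediator genes, MYC-inhibited against DMSO, by module, from edgeR. Circles with standard error bars use all 4 libraries, crosses leave out DMSO replicate 1 and plus signs leave out DMSO replicate 2. Med17 is lowest at -2.11 and Med15 and Med12l are highest at 1.43, and for most genes below 0 the crosses lie nearer to 0 than the circles.

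The core was compared with the kinase module library by library, after each gene was centred on its mean log2 CPM over the 4 libraries. The median of the 26 core genes was 0.33 and 0.06 in the DMSO libraries and -0.25 and -0.10 in the MYC-inhibited libraries. The median of the 7 kinase genes was 0.21 and -0.08 with DMSO and -0.03 and -0.23 with the inhibitor. The core was therefore lower in both MYC-inhibited libraries (0.19 ± 0.19 against -0.18 ± 0.11, n = 2), while the kinase medians overlapped between the groups (0.07 ± 0.21 against -0.13 ± 0.14). The core minus kinase difference was 0.11 and 0.14 with DMSO and -0.22 and 0.13 with the inhibitor, so that only MYC-inhibited replicate 1 stood apart and the groups overlapped (0.13 ± 0.02 against -0.05 ± 0.25). In log2FC the median was -0.48 for the core and -0.13 for the kinase module, a difference of -0.35 that ran from -0.56 to -0.02 when 1 library was left out. Without DMSO replicate 1 the medians were -0.18 and -0.09, and 15 core genes and 4 kinase genes lay below 0 (47% of all genes). Without the paralogs Med12l, Med13l and Cdk19, the kinase median was -0.40 and the difference was -0.07.

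Of the summed FPKM of all Mediator genes, which were 6509.8 and 5615 with DMSO and 4804 and 4929 with the inhibitor, the kinase module held 4.35% and 4.20% with DMSO and 4.85% and 4.49% with the inhibitor (4.28 ± 0.107% against 4.67 ± 0.249%, n = 2). These shares did not overlap, but 2 libraries against 2 cannot give an exact two-sided permutation p below 0.333, which is the value found. The paralog shares were examined in the same way. Cdk19 made up 1.08% and 0.978% of the summed FPKM of Cdk8 and Cdk19 with DMSO and 0.631% and 0.331% with the inhibitor. Cdk8 was thus nearly the sole kinase transcript in every library. Med12l made up 32.3% and 63.5% of the sum with Med12 in the DMSO libraries and 82.9% and 77.5% in the MYC-inhibited libraries. The DMSO libraries lay on opposite sides of an equal share, so that Med12l exceeded Med12 in 3 of the 4 libraries. Med13l made up 8.80% and 12.2% of the sum with Med13 in the DMSO group, and 11.5% and 12.8% in the MYC-inhibited group, with overlap. The exact two-sided permutation p was 0.333 for Cdk19 and Med12l and 0.667 for Med13l, or 0.5, 0.5 and 0.667 after Benjamini-Hochberg adjustment over the 3 pairs. As FPKM carries no counts of its own, these shares have no counting interval, and the low expected counts of Med12, Med12l and Cdk19 bound their precision.

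**Figure D4:**
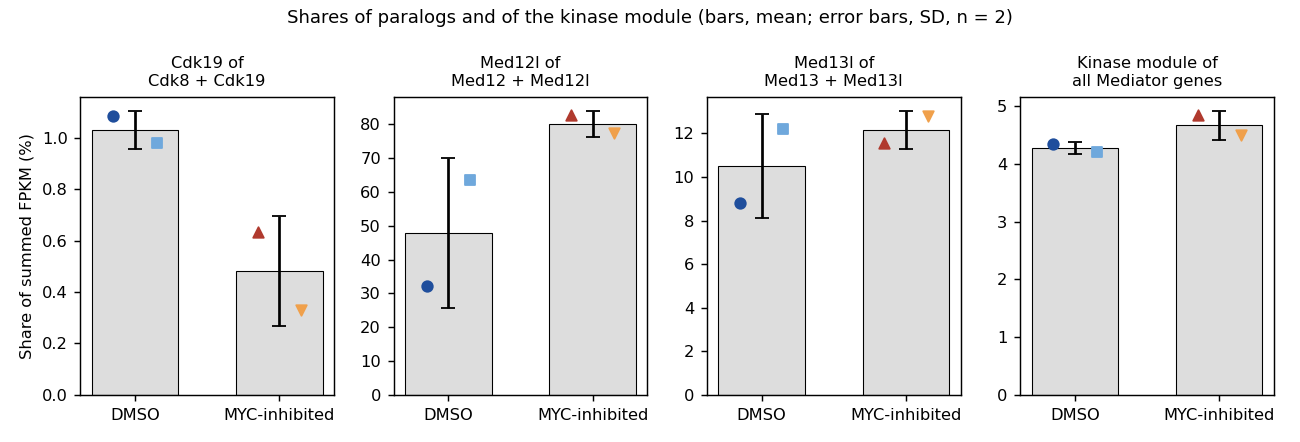
Shares of summed FPKM (percent, axes from 0) held by Cdk19, Med12l and Med13l within their paralog pairs and by the kinase module within all Mediator genes. Points are libraries, bars are group means and error bars are SD (n = 2); the Med12l share is 32.3% and 63.5% with DMSO and 82.9% and 77.5% with the inhibitor.

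The other parts of the polymerase II machinery were set beside Mediator, namely lists of the polymerase subunits, of the general transcription factors that assemble with the polymerase at the promoter, and of the factors that hold and release paused polymerase. Of the 13 polymerase subunits, 11 had a log2FC below 0, 3 were lower at an unadjusted p under 0.05 by edgeR and none higher, and the median was -0.63. Over all genes tested 48.5% lay below 0, and 10.1% were lower and 4.72% higher at that p. Of the 33 general factors, 24 lay below 0, 11 were lower at that p and none higher, and the median was -0.87. Of the 20 pause release factors tested (Eaf2 was not), 16 lay below 0, 5 were lower and none higher, and the median was -0.69. Without DMSO replicate 1 the medians were -0.28, -0.43 and -0.26, against -0.09 for Mediator and 0.06 for all genes. In that fit 11, 22 and 14 genes of the 3 lists lay below 0, against 47% of all genes. The counts at an unadjusted p are given for these lists with all 4 libraries only. By DESeq2 with transcript lengths 1, 1 and 2 genes of the 3 lists were called lower, against 5.38% of all genes with an adjusted p.

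Polr2h, a polymerase subunit shared with the other nuclear RNA polymerases, had 469 and 271 CPM with DMSO and 138 and 155 CPM with the inhibitor (log2FC -1.34, unadjusted p = 0.0119 by edgeR). Polr2m, the Gdown1 protein bound to a fraction of the polymerase that depends on Mediator, had 34.1 and 16.1 against 6.31 and 8.20 CPM (log2FC -1.79, unadjusted p = 0.0127 by edgeR). Among the general factors the smallest p-values fell on Ccnh and Mnat1, the cyclin and the assembly factor of the TFIIH kinase. Ccnh had 183 and 80.4 against 41.5 and 40.6 CPM (log2FC -1.68, unadjusted p = 0.00824 by edgeR), and Mnat1 had 89.6 and 57.2 against 21.3 and 34.4 CPM (log2FC -1.40, unadjusted p = 0.0156 by edgeR). Among the pause factors, Nelfe of the negative elongation factor had 84.2 and 45.5 against 15.6 and 23.5 CPM (log2FC -1.73, unadjusted p = 0.00756 by edgeR), and Supt5 of the pausing factor DSIF had 110 and 43.9 against 20.2 and 27.4 CPM (log2FC -1.69, unadjusted p = 0.0134 by edgeR). In all 6 genes the order was that of Med17, with DMSO replicate 1 highest, DMSO replicate 2 next and both MYC-inhibited libraries lowest, and the adjusted p was 0.333 by edgeR. Without DMSO replicate 1 the log2FC was -0.87 for Polr2h, -1.14 for Polr2m, -0.96 for Ccnh, -1.02 for Mnat1, -1.20 for Nelfe and -0.87 for Supt5.

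**Figure D5:**
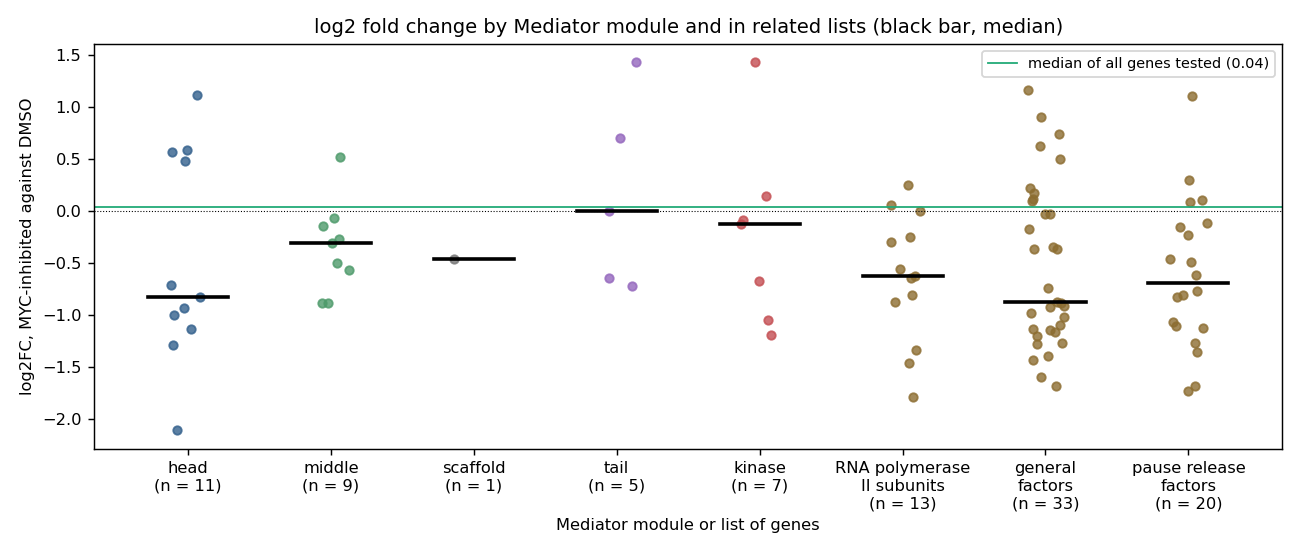
log2FC of each gene, MYC-inhibited against DMSO, by Mediator module and in the lists of polymerase subunits, general factors and pause release factors, with black bars at the medians and a green line at the median of all genes tested (0.04). The head (-0.83) and the 3 lists (-0.63, -0.87 and -0.69) have lower medians than the tail (-0.00) and the kinase module (-0.13), with values on both sides of 0 in each except the scaffold, which is 1 gene.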

How the data were processed

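The authors made libraries of polyadenylated RNA with a SMART-Seq kit, aligned reads to mm10 with STAR (version 2.7.10) and quantified genes with RSEM (version 1.3.3), per the labels and the submitters' processing notes. The deposited expected count is RSEM's estimate of fragments per gene, not normalized, and 3.97% to 4.49% of values per library were not whole. The deposited FPKM is scaled to effective length and library, and the deposited TPM entered no value reported here. Effective lengths, also deposited, entered 1 alternative.

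Expected counts were rounded, filtered (filterByExpr with a minimum count of 10 and a total of at least 15, passed by 13549 genes), scaled by TMM (factors 0.873 to 1.06) and tested with edgeR 4.0.16 in R 4.3.3 (quasi-likelihood, Benjamini-Hochberg over all genes tested). The common biological coefficient of variation was 0.557, which limits what 2 libraries per group can show. CPM values are TMM-scaled, and SD values are over 2 libraries. Alternatives were DESeq2 1.42.0 on all genes, on the same genes and with transcript lengths, limma 3.58.1 on log2 FPKM with a pseudocount of 1 or 0.1, where the mean FPKM reached 1, other scalings and filters, a replicate block, leaving out each library, and other borders of the modules. Fits were also run on simulated counts, as a check on the size of fold changes set beforehand. The simulation gave every gene the same variation and held no library that stood apart. It therefore does not bear on how the fits handle DMSO replicate 1.

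The members, lists and tests were chosen with earlier results of these data known, and the module and pathway lists were written from general knowledge. Library values are given for all kinase genes, for Med14 and Med26, for the core genes called by DESeq2 or with an unadjusted p under 0.05, for the 3 core genes highest and the 3 lowest in FPKM, for those with the largest log2FC each way, and for the 2 genes of each pathway list with the smallest p. Values of other genes were added after they had been seen. Deviations of same-numbered libraries from their group means correlated at -0.03 over 13549 genes, so the numbers were not taken to pair the libraries. Motif matches and sequences came from RefSeq windows of 250 bases before and 50 after the start. Start of treatment (3 or 6 hpi) enters no computation.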

Additional observations from a re-analysis of the deposited data

How the results depend on the processing

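Over all genes, edgeR called 0 higher and 0 lower, and the calls (higher and lower) were 87 and 437 with DESeq2 on all genes, 95 and 471 with DESeq2 on the same genes, 83 and 429 with DESeq2 and transcript lengths, and 165 and 479 without the filter. Leaving out 1 library gave 1 to 2148 higher and 1 to 2065 lower. Among the Mediator genes these 4 fits called 1 lower, Med17 in each, and leaving out 1 library gave 0 to 3 higher and 0 to 8 lower, the most without DMSO replicate 2 (Med28, Med30 and Med15 higher, and Med6, Med8, Med17, Med20, Med29, Med10, Med31 and Ccnc lower). The calls over all genes were also the most without DMSO replicate 2, a fit of 14669 genes in which the DMSO group is 1 library. Whether Mediator genes were called more often than other genes in that fit was not tested. The cause of the differences between fits was not tested. With the replicate block, which rests on shared numbers only, 12 genes were higher and 32 lower, 0 of them Mediator genes, the core median was -0.37 and core minus kinase was -0.24.

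The core median of -0.48 became -0.32 with library totals, -0.13 with limma on FPKM + 0.1 and -0.16 on FPKM + 1, and ran from -0.64 to -0.18 without 1 library. The kinase median of -0.13 became 0.0530 and 0.0513 with limma (pseudocounts 0.1 and 1) and -0.40 without its paralogs, which moved core minus kinase from -0.35 to -0.0749. Without 1 library the kinase median ran from -0.27 to -0.08 and core minus kinase from -0.560 to -0.0183. Library totals moved the median of all genes from 0.04 to 0.17, and limma moved it to 0.16 and 0.12. In expected counts the Cdk19 share differed by -1.28 percentage points (FPKM -0.549) and the kinase share by 1.53 (FPKM 0.395).

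Of 456 values of a gene under an alternative, 417 kept direction and side of the thresholds, 15 passed them only under the alternative, and 24 changed sign. With library totals the log2FC was 0.00048 for Med9, 0.0755 for Med19, 0.164 for Med23, 0.0471 for Med13 and 0.0199 for Cdk8. With limma (pseudocounts 0.1 and 1) it was 0.0701 and 0.0657 for Med19, 0.00545 and 0.0259 for Med23, 0.0530 and 0.0513 for Med13 and 0.00937 and 0.00936 for Cdk8. A minimum of 10 counts in every library gave 0.0285 for Med23. Without 1 library Med18 ran from -1.66 to 1.32, Med19 from -0.15 to 0.0297, Med16 from -1.45 to 0.69, Med23 from -0.87 to 0.58, Med12 from -1.70 to 0.18, Med13l from -0.0912 to 0.44 and Cdk8 from -0.27 to 0.0405. Depth limits Med12, Med12l, Med16, Med18, Med24, Med25 and Cdk19, which had under 500 counts in every library.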
